A study of Mus musculus with 18 samples.

Results

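Haem, the iron-containing group of haemoglobin, is opened by haem oxygenases, which release iron, carbon monoxide and biliverdin, and biliverdin reductases turn biliverdin into bilirubin. The iron that is set free is stored in ferritin or leaves the cell through ferroportin, and most cells take up new iron through the transferrin receptor. In marrow and spleen, macrophages do much of this work when they digest old red cells, and haem itself relieves the repression that BACH1 places on the genes of the pathway. The genes described here are 10 of the 19505 measured on the arrays: Hmox1, Hmox2, Blvra and Blvrb (haem breakdown), Slc48a1, Slc40a1 and Tfrc (haem and iron transport), Fth1 (storage), and Bach1 and Spic (regulators). They were named as a list, and for each symbol the probe set with the highest mean signal was to be taken. Each of the 10 genes had exactly 1 probe set, so that step selected nothing. The list was chosen on measured values of these same arrays: Hmox1 was known to have the most negative difference of all genes between NeuT and BALB/c mice at 12 weeks. That value is therefore given as a description without a test. The other members were also chosen with earlier results of these data known, and their adjusted p-values are read with that limit.

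RNA came from bone marrow preparations labelled mesenchymal stromal cells, the marrow cells that support blood formation and can form bone and fat, with 1 array for each of 18 mice. The groups were 5 NeuT mice of 12 weeks (labelled early stage), 5 BALB/c mice of 12 weeks, 4 NeuT mice of 24 weeks (labelled late stage) and 4 BALB/c mice of 24 weeks. NeuT mice, which develop mammary tumours, express a transgene of rat Erbb2 (HER2/neu) in its activated form. In the commonly used BALB-neuT strain it is driven by a mouse mammary tumour virus promoter, while the labels name no promoter. Both NeuT groups are labelled as tumour-bearing, so an effect of the transgene and one of the tumours cannot be told apart. Age likewise cannot be told apart from any processing batch of the 2 ages, since the labels name none. The cells came from femurs and tibias after bead depletion of cells positive for CD45, Ter119, CD11b, CD11c, CD3, Gr1 or B220, and flow cytometry was used to check that they were CD45-, CD29+ and CD44+. The questions asked of the 10 genes are how NeuT preparations differ from BALB/c ones at each age, and whether that difference depends on age.

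All values are log2 signals as deposited. Median signals of the arrays ran from 8.43 to 8.56, and correlations between arrays from 0.978 to 0.997, taken across genes (not independent replicates). Of the 18, the 3 arrays with the lowest median correlation were replicate 4 of the NeuT mice of 12 weeks, replicate 1 of the NeuT mice of 24 weeks and replicate 3 of the BALB/c mice of 24 weeks. The first of these carries different mouse numbers in its title and its description, and was kept in its labelled group. The table has no detection calls, and the number of arrays limits the precision. The median of the negative control probe sets was 7.35 and their 95th percentile 10.46 on the log2 scale. Blvrb, Fth1 and Bach1 were above that percentile on 18 of 18 arrays, Slc48a1 on 15 and Tfrc on 3. Hmox1, Hmox2, Blvra and Slc40a1 lay between the median and the 95th percentile on every array. Spic was under the median on every array. Of the genes for depleted antigens, Ptprc (CD45) was above the 95th percentile on 18 of 18 arrays, at 11.70 to 12.45, Itgam (CD11b) on 4, at 9.74 to 10.67, and Itgax (CD11c) and Cd3e (CD3) on 0. The neutrophil gene Elane and the red-cell gene Slc4a1 were above it on 18 of 18 arrays. Itgb1 and Cd44, which encode CD29 and CD44, were also above it on 18 of 18 arrays. The stromal genes Cxcl12, at 9.04 to 9.45, and Col1a2, at 8.25 to 8.86, were above it on none. In such bulk preparations, fewer cells of a type and less RNA per cell cannot be told apart.

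Hmox1 encodes the inducible haem oxygenase, the enzyme that cells switch on under haem load or oxidative stress. Its log2 signals were 8.57, 8.87, 8.82, 8.39 and 8.81 in the NeuT mice of 12 weeks, against 9.82, 10.04, 9.98, 9.53 and 9.83 in the BALB/c mice of 12 weeks. Every NeuT mouse was below every BALB/c mouse. At 24 weeks the signals were 9.94, 9.51, 9.68 and 9.23 in NeuT mice and 9.37, 9.57, 9.36 and 9.61 in BALB/c mice, and the groups overlapped. The 12-week means were 8.69 ± 0.21 in NeuT and 9.84 ± 0.20 in BALB/c mice (SD, n = 5 each), a log2 difference of -1.15 (SE 0.12), or 0.451 of the BALB/c signal. At 24 weeks the means were 9.59 ± 0.30 in NeuT and 9.48 ± 0.13 in BALB/c mice (SD, n = 4 each), and the log2 difference of 0.11 had a 95% interval of -0.16 to 0.39 (limma, adjusted p = 0.761). All p-values here are adjusted by Benjamini-Hochberg over the 19505 genes, with a threshold of 0.05.

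**Figure D1:**
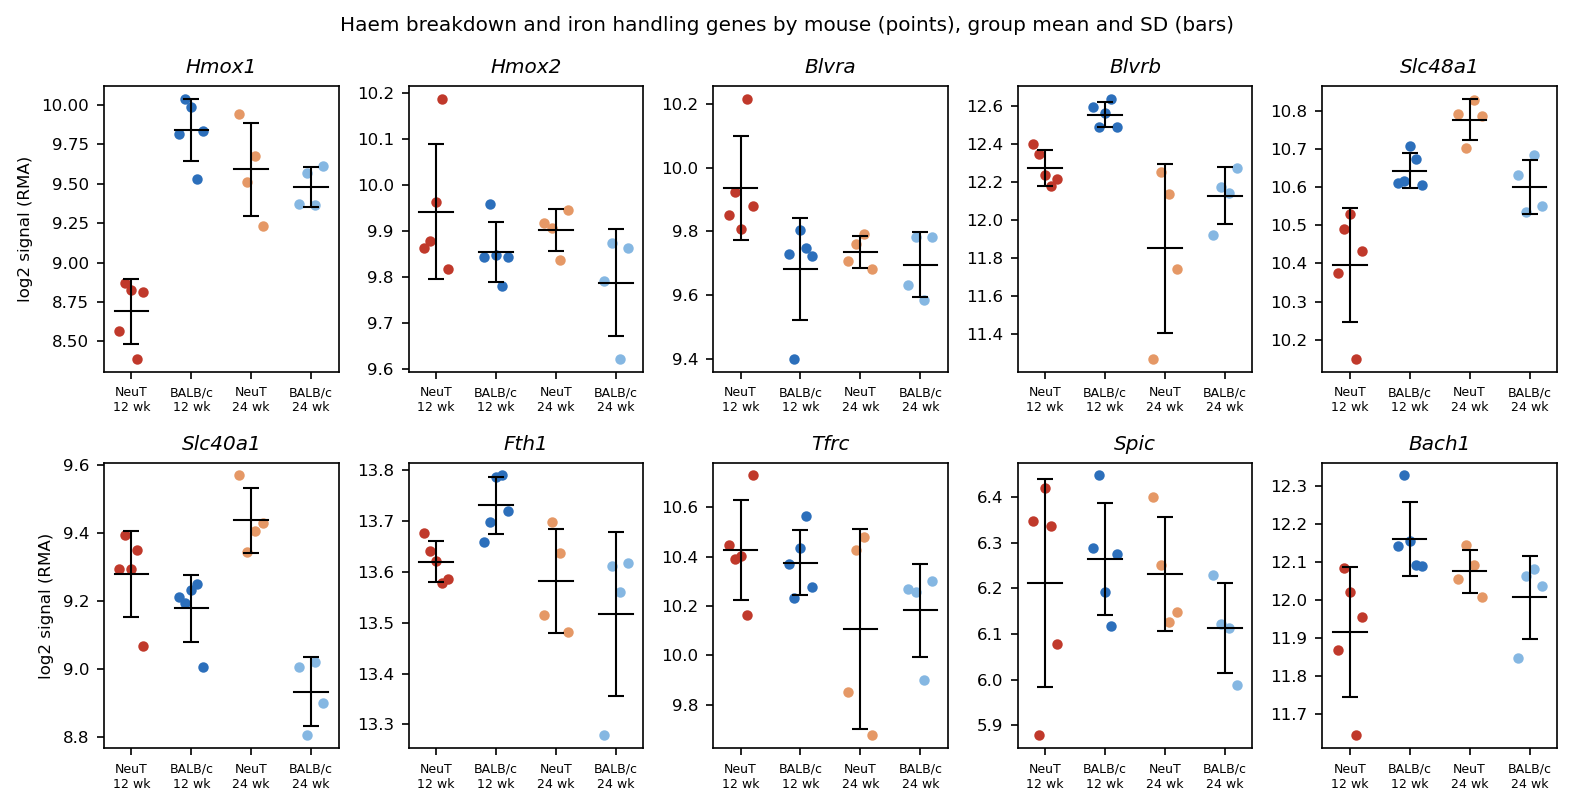
Log2 signal (vertical axis, own scale per panel) of each of the 10 genes in every mouse, with groups side by side as NeuT and BALB/c at 12 weeks and NeuT and BALB/c at 24 weeks; points are mice, long bars group means and whiskers ± 1 SD (n = 5, 5, 4 and 4). The 5 NeuT mice of 12 weeks lie between 8.39 and 8.87 for Hmox1, below all other mice, and the 4 NeuT mice of 24 weeks lie above the 4 BALB/c mice of that age for Slc40a1.

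For Hmox1 the difference of the 2 NeuT effects, 24 minus 12 weeks, was 1.26 on the log2 scale (SE 0.18). Within NeuT mice it was higher at 24 than at 12 weeks by 0.90 (SE 0.13). Both values are built on the 12-week NeuT mice whose low signals put Hmox1 on the list, so they too are given as a description without a test. Without the 3 arrays that correlated least with the others they were 1.03 and 0.71. Of all genes, 2 passed the test of the difference of effects (0.0103%) and 7 that of age in NeuT mice (0.0359%), and 0 of the 9 members other than Hmox1 passed either one by limma. At an unadjusted p under 0.05 the members, Hmox1 included, numbered 4 of 10 and 5 of 10, beside 6.50% and 12.6% of all genes. The values that chose Hmox1 put it in both counts, so neither is read as a result about the members. The others were Slc48a1, Slc40a1 and Bach1 for the difference of effects, and Slc48a1, Blvrb, Blvra and Tfrc for age in NeuT mice. In BALB/c mice Hmox1 differed by -0.36 between 24 and 12 weeks. The 12-week BALB/c values are part of the difference that put it on the list, so this too is a description without a test.

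The other haem oxygenase and the 2 biliverdin reductases passed no test. Hmox2 encodes the constitutive haem oxygenase. It gave 9.86, 9.88, 9.96, 10.19 and 9.82 in NeuT mice of 12 weeks and 9.84, 9.96, 9.85, 9.78 and 9.84 in BALB/c mice of 12 weeks. At 24 weeks it gave 9.92, 9.91, 9.84 and 9.95 in NeuT mice and 9.79, 9.87, 9.62 and 9.86 in BALB/c mice. The groups overlapped at both ages. Its log2 differences were 0.087 at 12 weeks (95% interval -0.065 to 0.24, adjusted p = 0.520) and 0.11 at 24 weeks (-0.057 to 0.28, adjusted p = 0.587). Both intervals include 0.

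Blvra encodes biliverdin reductase A, the main enzyme that makes bilirubin. At 12 weeks it gave 9.85, 9.92, 9.81, 10.22 and 9.88 in NeuT mice, against 9.73, 9.40, 9.81, 9.75 and 9.72 in BALB/c mice. The groups did not overlap, but the lowest NeuT and the highest BALB/c mouse both round to 9.81. The log2 difference was 0.26 (95% interval 0.081 to 0.43), which missed the threshold (adjusted p = 0.0841). At 24 weeks Blvra gave 9.68 to 9.79 in NeuT mice and 9.59 to 9.78 in BALB/c mice, a difference of 0.040 (adjusted p = 0.893).

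Blvrb encodes biliverdin reductase B, which also reduces flavins and is abundant in red-cell precursors. At 12 weeks it gave 12.40, 12.35, 12.24, 12.18 and 12.21 in NeuT mice and 12.60, 12.49, 12.56, 12.64 and 12.49 in BALB/c mice. Every NeuT mouse was lower, with a log2 difference of -0.28 (95% interval -0.54 to -0.022), which missed the threshold after adjustment (adjusted p = 0.198). At 24 weeks the signals were 11.27, 12.25, 12.14 and 11.74 in NeuT mice and 11.92, 12.17, 12.14 and 12.28 in BALB/c mice. Here the groups overlapped, NeuT replicates 1 and 4 were the lowest of all 18 mice, and the difference of -0.28 did not pass (adjusted p = 0.400).

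Among the transporters, the signal of 1 gene was lower in NeuT mice at 12 weeks and that of another was higher at 24 weeks. Slc48a1 encodes HRG1, which carries haem out of the phagolysosome. At 12 weeks it gave 10.37, 10.49, 10.53, 10.15 and 10.43 in NeuT mice, against 10.61, 10.62, 10.71, 10.67 and 10.61 in BALB/c mice. Every NeuT mouse was below every BALB/c mouse. Slc48a1 was lower in NeuT mice by 0.25 on the log2 scale (SE 0.070, 95% interval -0.39 to -0.10, adjusted p = 0.0474). This call was close to the threshold: it held in 4 of 18 fits that left out 1 array, and without NeuT 12-week replicate 4 the difference was -0.19 (adjusted p = 0.122). At 24 weeks Slc48a1 gave 10.79, 10.70, 10.83 and 10.79 in NeuT mice and 10.63, 10.53, 10.69 and 10.55 in BALB/c mice. All NeuT mice were then above all BALB/c mice, by a log2 difference of 0.18 that did not pass (adjusted p = 0.320), and the difference of the 2 effects, 0.43, did not pass either (adjusted p = 0.452).

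Slc40a1 encodes ferroportin, the known exporter of iron from mammalian cells. Its signals at 24 weeks were 9.57, 9.34, 9.40 and 9.43 in NeuT mice, against 9.01, 8.81, 9.02 and 8.90 in BALB/c mice. Every NeuT mouse was above every BALB/c mouse. The means were 9.44 ± 0.095 in NeuT and 8.93 ± 0.10 in BALB/c mice (SD, n = 4 each). Slc40a1 was higher in NeuT than in BALB/c mice by 0.50 on the log2 scale, or 1.42-fold (SE 0.084, 95% interval 0.33 to 0.68, adjusted p = 0.00928). At 12 weeks it gave 9.29, 9.39, 9.29, 9.35 and 9.07 in NeuT mice and 9.21, 9.19, 9.23, 9.25 and 9.01 in BALB/c mice, which overlapped, with a difference of 0.10 (adjusted p = 0.461). The 2 effects were not shown to differ (difference 0.40, adjusted p = 0.557). Between 24 and 12 weeks Slc40a1 differed by 0.16 within NeuT mice (adjusted p = 0.425) and by -0.25 within BALB/c mice (adjusted p = 0.131). The 24-week call ended without NeuT 24-week replicate 1 (0.46, adjusted p = 0.0707) and in the fit of only the 24-week groups (adjusted p = 0.0902). It also ended with the mean of a marker list as covariate: 0.45 for macrophages (adjusted p = 0.0576), 0.46 for erythroid cells (adjusted p = 0.0938) and 0.32 for neutrophils (adjusted p = 0.586).

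Tfrc encodes transferrin receptor 1, through which dividing cells and red-cell precursors take up iron. It gave 10.45, 10.39, 10.40, 10.16 and 10.73 in NeuT mice of 12 weeks and 10.37, 10.23, 10.44, 10.56 and 10.27 in BALB/c mice of 12 weeks. At 24 weeks the signals were 9.85, 10.43, 10.48 and 9.68 in NeuT mice and 10.27, 10.26, 9.90 and 10.30 in BALB/c mice. The groups overlapped at both ages, and the same 2 NeuT mice that were low in Blvrb were low in Tfrc. The log2 differences of 0.051 (95% interval -0.22 to 0.33, adjusted p = 0.854) and -0.075 (-0.38 to 0.23, adjusted p = 0.870) did not pass.

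Fth1 encodes the ferritin heavy chain, which oxidises iron for storage. The gene has near-identical processed copies in the genome, so its probe set may read more than 1 locus. It gave 13.68, 13.64, 13.62, 13.58 and 13.59 in NeuT mice and 13.66, 13.70, 13.79, 13.79 and 13.72 in BALB/c mice at 12 weeks, with overlap. The log2 difference was -0.11 (95% interval -0.26 to 0.037, adjusted p = 0.384). At 24 weeks it ranged from 13.48 to 13.70 in NeuT mice and from 13.28 to 13.62 in BALB/c mice, a difference of 0.065 (adjusted p = 0.771).

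Of the regulators, Bach1 encodes the haem-sensing repressor of Hmox1. At 12 weeks it gave 11.87, 12.08, 12.02, 11.64 and 11.96 in NeuT mice, against 12.14, 12.33, 12.16, 12.09 and 12.09 in BALB/c mice. The groups did not overlap, though by little, and the log2 difference of -0.25 (SE 0.080, 95% interval -0.41 to -0.082) missed the threshold (adjusted p = 0.0793). Its sign was the same as that of Hmox1. At 24 weeks the signals were 12.06, 12.15, 12.09 and 12.01 in NeuT mice and 11.85, 12.06, 12.08 and 12.04 in BALB/c mice, a difference of 0.069 (adjusted p = 0.786). Spic encodes a transcription factor needed in mice for red-pulp and marrow macrophages that recycle iron. Its signals of 5.88 to 6.42 in NeuT and 6.12 to 6.45 in BALB/c mice of 12 weeks, and of 6.13 to 6.40 in NeuT and 5.99 to 6.23 in BALB/c mice of 24 weeks, were all under the median of the negative controls. The differences in signal of -0.052 (adjusted p = 0.783) and 0.12 (adjusted p = 0.664) did not pass, and no size of change in transcript follows from them.

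**Figure D2:**
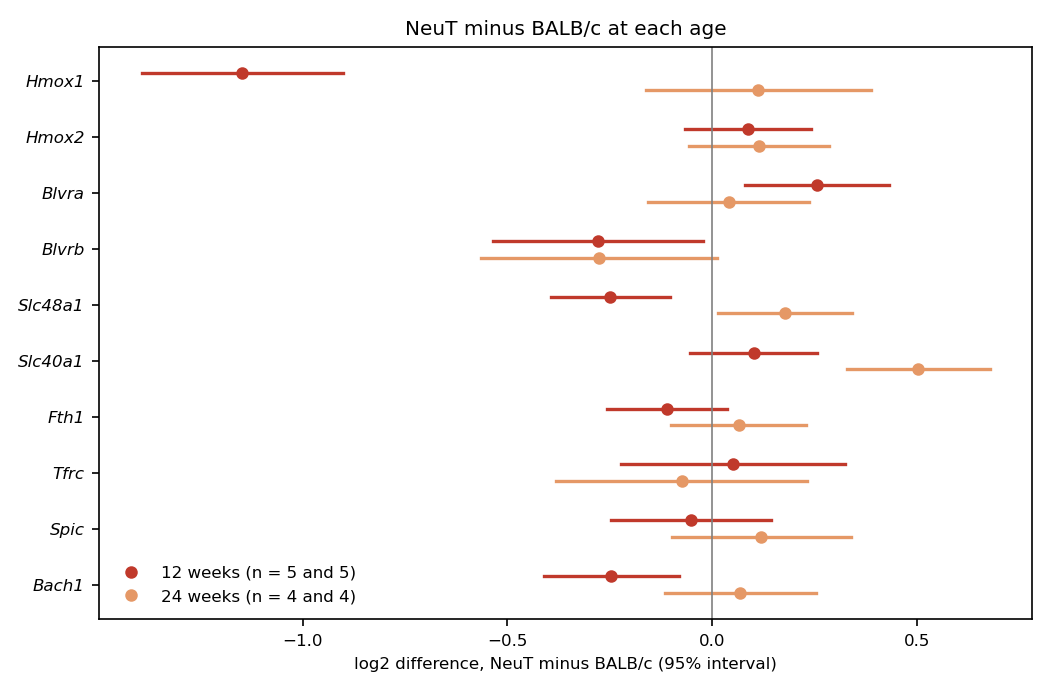
Log2 difference, NeuT minus BALB/c (horizontal axis), of each of the 10 genes at 12 weeks (upper point of each pair, n = 5 and 5) and 24 weeks (lower point, n = 4 and 4), with 95% intervals from the limma fit. Hmox1 at 12 weeks (-1.15) lies apart from the other members, and Slc40a1 has the highest 24-week difference of the 10 (0.50). Hmox1 was listed for its 12-week value, so the interval drawn for that value is not read as a test.

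Counted over the members, 1 of the 9 genes other than Hmox1 passed at 12 weeks, lower in NeuT (Slc48a1). Of all genes 3.84% passed in that contrast, 3.15% higher and 0.687% lower in NeuT. The groups did not overlap for 4 of the 9 (Blvra, Blvrb, Slc48a1 and Bach1), against 7.46% of all genes. The median log2 difference of all 10 members, Hmox1 included, was -0.081, beside -0.025 over all genes. Since Hmox1 was listed for its 12-week value, this median is not read as a result about the members. At 24 weeks 1 of 10 members passed, higher in NeuT (Slc40a1), where 1.40% of all genes passed, 1.18% higher and 0.220% lower. Groups did not overlap for 2 of 10 (Slc40a1 and Slc48a1), against 6.72% of all genes, and the medians were 0.091 for the members and -0.00014 for all genes. In BALB/c mice 0 of 10 members passed between 24 and 12 weeks, where 0.579% of all genes did by limma. At an unadjusted p under 0.05 there were 4 members, Hmox1 included, beside 15.3% of all genes, and these 4 had negative differences. They were Hmox1, Blvrb at -0.43 (adjusted p = 0.112), Slc40a1 at -0.25 (adjusted p = 0.131) and Fth1 at -0.21 (adjusted p = 0.166). The 12-week BALB/c values of Hmox1 helped choose it. The count is therefore not read as a result about the members. Within NeuT mice Slc48a1, higher by 0.38 at 24 than at 12 weeks, was just short of the threshold (adjusted p = 0.0509). Blvrb differed by -0.42 within NeuT mice (adjusted p = 0.172), by -0.23 without NeuT 24-week replicate 1 (adjusted p = 0.558) and by -0.56 without replicate 2 of that group (adjusted p = 0.0417).

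How the members moved together from mouse to mouse was described after each group's mean was taken off, over 18 arrays. Bach1 had a correlation of 0.61 with Hmox1 on this scale, and between 0.49 and 0.74 when 1 array was left out. For Slc48a1 it was 0.35, but 0.036 to 0.44 when 1 array was left out. For the other 7 members it lay between -0.27 and 0.20. Leaving out 1 array moved it as low as -0.40 for Blvra and -0.31 for Slc40a1. It then ran from -0.36 to 0.34 for Blvrb, from -0.19 to 0.34 for Hmox2 and from -0.12 to 0.44 for Tfrc. Over all genes the highest values belonged to Acox3 (0.80), Itpkb (0.80), Itgb2 (0.79), B4galt1 (0.78) and Acvr1 (0.77), and the lowest to Cxcl5 (-0.87), Timm10 (-0.82) and Dnajc17 (-0.81). These points share the arrays and their quality, and are a description only.

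The wider pathway was read from 5 lists of further genes. Most of their genes passed no test at either age. Among 18 partners and other targets of BACH1 and NRF2, the factors that repress and activate Hmox1, 2 were lower and 0 higher in NeuT mice at 12 weeks, and 0 passed at 24 weeks. The median log2 difference of the list was -0.24 at 12 and -0.016 at 24 weeks, beside -0.025 and -0.00014 over all genes. Srxn1 encodes sulfiredoxin, which restores oxidised peroxiredoxins. It gave 8.91, 8.91, 8.84, 8.66 and 8.85 in NeuT mice of 12 weeks, against 9.39, 9.59, 9.33, 9.32 and 9.59 in BALB/c mice of 12 weeks. At 24 weeks it gave 9.09, 9.29, 9.17 and 9.14 in NeuT mice and 9.07, 9.21, 9.18 and 9.41 in BALB/c mice. As for Hmox1, the groups were apart at 12 weeks and overlapped at 24 weeks, and every signal lay between the median and the 95th percentile of the negative controls. Srxn1 was lower in NeuT mice by 0.61 at 12 weeks (SE 0.079, adjusted p = 0.000233) and differed by -0.043 at 24 weeks (adjusted p = 0.876). Its 2 effects were not shown to differ (0.56, adjusted p = 0.233). Gclc, the catalytic subunit for glutathione synthesis, was lower in NeuT mice by 0.43 at 12 weeks (adjusted p = 0.0325). At 24 weeks the smallest p of this list belonged to Bach2, the lymphoid relative of Bach1, at -0.98 (adjusted p = 0.0726).

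Because Srxn1, like Hmox1, was lower in NeuT mice at 12 weeks, the 250 bases before its transcription start are shown, from RefSeq (chr2:152105274-152105523 of GRCm38.p6, plus strand). Capitals mark the antioxidant response element, the motif that BACH1 and NRF2 are known to bind, which begins 45 bases before the start.
Srxn1 promoter: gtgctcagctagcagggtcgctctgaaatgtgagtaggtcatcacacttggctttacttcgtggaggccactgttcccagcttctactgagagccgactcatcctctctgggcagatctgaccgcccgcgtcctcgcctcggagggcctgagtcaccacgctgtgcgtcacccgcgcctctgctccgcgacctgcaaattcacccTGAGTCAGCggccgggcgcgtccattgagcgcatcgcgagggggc
The motif searched was TGANTCAGC on both strands, which contains the AP-1 motif TGANTCA, in windows of 250 bases before to 50 after the start. It was found in 1.19% of 32851 windows, and in those of 4 of 17 genes of the list (Srxn1, Me1, Osgin1 and Prdx1). It was found in 0 of the 7 members with a window, which are Hmox2, Blvra, Blvrb, Fth1, Tfrc, Spic and Bach1. The looser core TGACNNNGC, with which it can overlap, was found in 12.4% of all windows, in those of 10 of the 17 list genes, and in that of 1 of the 7 members, Blvra. A match says only that these letters are in the window.

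In the list for haem uptake, export and scavenging, 1 of 13 genes was higher and 0 lower in NeuT mice at 12 weeks. It was Hp, which encodes haptoglobin, the plasma binder of free haemoglobin. Hp gave 12.12, 11.98, 11.97, 12.02 and 11.50 in NeuT mice of 12 weeks, against 11.27, 11.26, 11.56, 11.20 and 11.38 in BALB/c mice. NeuT replicate 5 lay within the BALB/c range and the other 4 above it. Hp was higher in NeuT mice by 0.59 (adjusted p = 0.00962), and at 24 weeks, where 0 of 13 passed, it differed by 0.44 (adjusted p = 0.112). In the list for haem synthesis, 1 of 8 genes was higher and 0 lower at each age, in both cases Alas1, the housekeeping form of the first enzyme of the pathway. Its means were 12.88 ± 0.088 in NeuT and 12.49 ± 0.045 in BALB/c mice of 12 weeks (SD, n = 5 each), and 13.07 ± 0.17 in NeuT and 12.63 ± 0.15 in BALB/c mice of 24 weeks (SD, n = 4 each). Alas1 was higher in NeuT mice by 0.38 at 12 weeks (adjusted p = 0.00922) and by 0.44 at 24 weeks (adjusted p = 0.0233), while the medians of the list were -0.21 and -0.14.

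In the list for iron import, storage and release, 0 of 19 genes passed at 12 weeks, where Trf, transferrin, had the smallest p (0.28, adjusted p = 0.0958). At 24 weeks 1 was higher and 0 lower: Cp, ceruloplasmin, the ferroxidase that works with ferroportin, was higher in NeuT mice by 0.64 (adjusted p = 0.0427). Its signals were 7.56, 7.68, 7.15 and 7.20 in NeuT mice and 6.85, 6.77, 6.37 and 7.04 in BALB/c mice of 24 weeks. All BALB/c signals were below the control median of 7.35, and how much the transcript itself changed is therefore unknown. In the list for control of iron levels, 1 of 15 genes was higher and 0 lower at 12 weeks, Id1, a target of BMP signalling (0.69, adjusted p = 0.0100). At 24 weeks 0 of 15 passed, and Hjv, the BMP co-receptor haemojuvelin, had the smallest p (-0.25, adjusted p = 0.271). Its 24-week signals, 6.24 to 6.53 in NeuT and 6.46 to 6.76 in BALB/c mice, were all below the control median. The medians of these 2 lists lay between -0.054 and 0.070 at both ages.

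**Figure D3:**
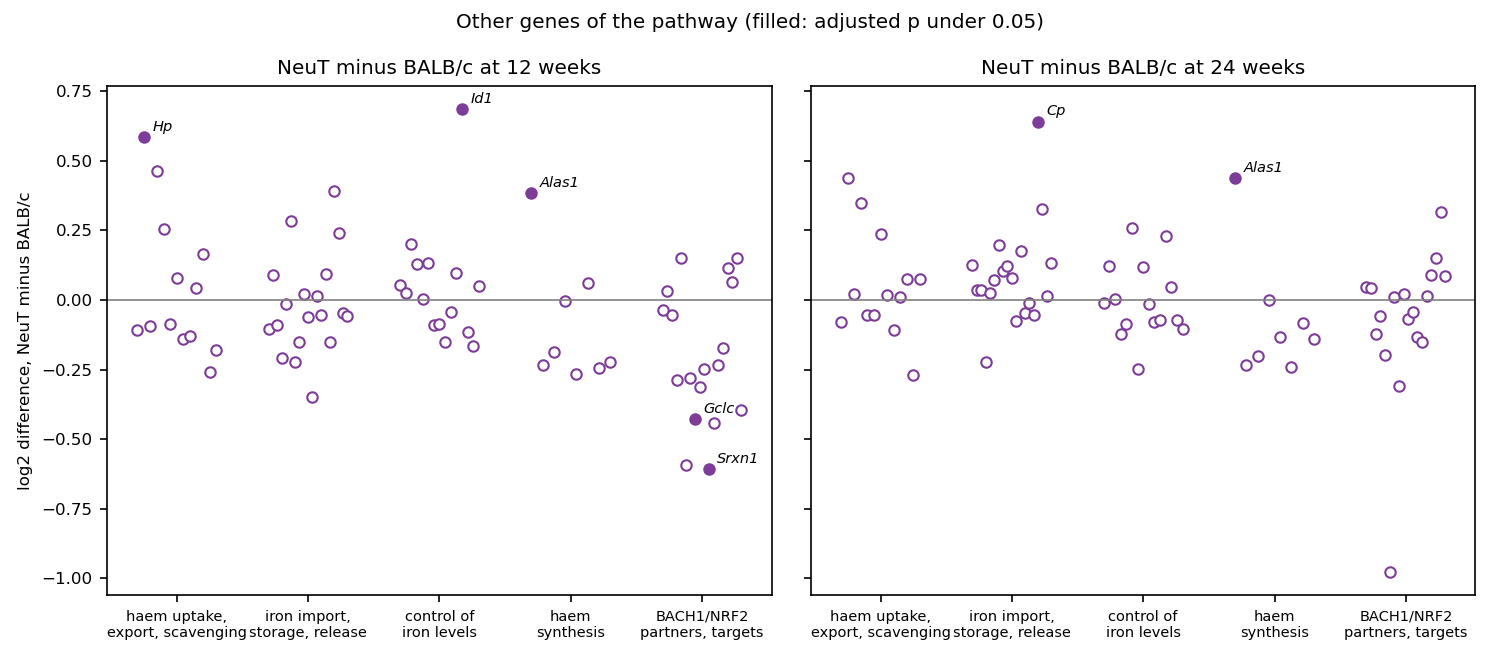
Log2 difference, NeuT minus BALB/c (vertical axis), of every measured gene of the 5 pathway lists at 12 weeks (left, n = 5 and 5) and 24 weeks (right, n = 4 and 4); filled points passed the limma test. Srxn1 (-0.61) and Gclc (-0.43) are the filled points below zero at 12 weeks, and Cp (0.64) and Alas1 (0.44) the filled ones at 24 weeks.

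Markers of other cell types differed beside these genes, and their part in the results was not tested beyond the covariate fits given. Of 18 measured macrophage genes, C1qc was lower at 12 weeks (-0.33, adjusted p = 0.0179) and Vcam1 higher at 24 weeks (0.47, adjusted p = 0.0233). C1qc gave 7.21 to 7.51 in NeuT and 7.60 to 7.82 in BALB/c mice of 12 weeks, near the control median of 7.35. Differences of the macrophage list were positive for 11 and negative for 7 genes at 12 weeks, and positive for 12 and negative for 6 at 24 weeks. The mean of that list ran from 7.54 to 7.79 in NeuT and from 7.59 to 7.65 in BALB/c mice of 12 weeks, and from 7.64 to 7.70 in NeuT and from 7.43 to 7.69 in BALB/c mice of 24 weeks. Each of the 18 macrophage genes had a mean over all arrays below the 95th percentile of the negative controls. Of 12 measured erythroid genes 0 passed at either age (limma), with Slc4a1 at -0.51 (adjusted p = 0.0819) at 12 weeks and Rhd at -0.43 (adjusted p = 0.225) at 24 weeks, but all 12 had negative differences at both ages. Erythroid means were 11.15 to 11.52 in NeuT and 11.56 to 11.73 in BALB/c mice of 12 weeks, and 10.53 to 11.48 in NeuT and 11.18 to 11.41 in BALB/c mice of 24 weeks. NeuT 24-week replicates 1 and 4, low in Blvrb and Tfrc, had the lowest erythroid means, 10.53 and 10.67.

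Of 15 neutrophil genes 5 were higher in NeuT mice at 12 weeks and 6 at 24 weeks, with 0 lower. Their mean was 11.19 to 12.29 in NeuT and 11.07 to 11.54 in BALB/c mice of 12 weeks, and 11.45 to 12.20 in NeuT and 11.00 to 11.42 in BALB/c mice of 24 weeks. Of 10 genes of inflammatory monocytes 6 were higher at 12 weeks, led by Ccr2 (1.25), and 1 at 24 weeks, Ly6c2 (0.44), with 0 lower. Monocyte means were 10.44 to 10.80 in NeuT and 10.01 to 10.22 in BALB/c mice of 12 weeks, and 10.38 to 10.96 in NeuT and 10.20 to 10.42 in BALB/c mice of 24 weeks. With the neutrophil mean as covariate the 12-week difference of Hmox1 was -1.07, with the erythroid mean -1.15 and with the macrophage mean -1.14. Hmox1 was listed for its 12-week value, so these values are a description only. The monocyte mean was not used as a covariate. For Slc48a1 the 12-week difference was -0.24 with the erythroid mean (adjusted p = 0.145) and -0.27 with the neutrophil mean (adjusted p = 0.489), so its size was about that reported while the call ended. Of the remaining lists, B cells had 0 of 9 passing at 12 weeks and 1 lower at 24 weeks, with all 9 differences negative at both ages (medians -0.42 and -0.71). T and NK cells had 1 of 10 higher at 12 weeks and 1 higher and 3 lower at 24 weeks. Endothelial genes had 1 of 9 lower and stromal genes 1 of 15 lower at 12 weeks, and both had 0 at 24 weeks. Megakaryocyte genes had 0 of 7 passing at both ages by limma, where Ppbp (-0.60, adjusted p = 0.0734) and Vwf (0.17, adjusted p = 0.498) had the smallest p. Their differences were negative for 7 of 7 at 12 weeks and positive for 6 of 7 at 24 weeks.

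**Figure D4:**
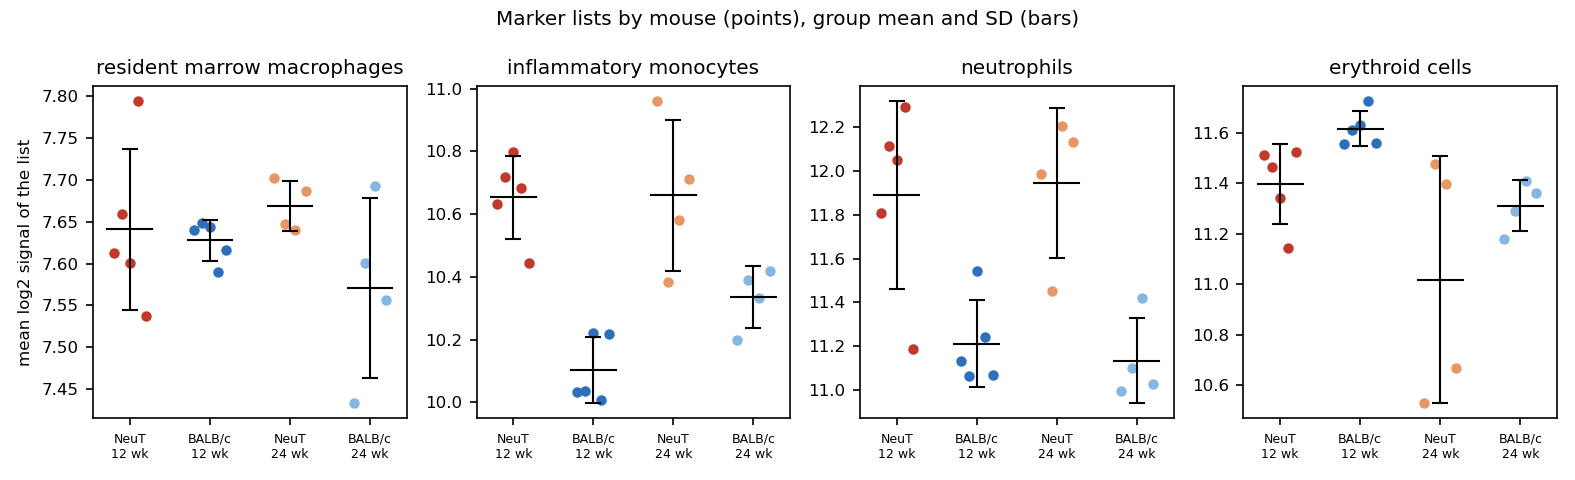
Mean log2 signal (vertical axis, own scale per panel) over the measured genes of 4 marker lists in every mouse, with groups as NeuT and BALB/c at 12 weeks and NeuT and BALB/c at 24 weeks; points are mice, long bars group means and whiskers ± 1 SD (n = 5, 5, 4 and 4). The neutrophil mean is 11.89 in NeuT and 11.21 in BALB/c mice of 12 weeks, and 2 NeuT mice of 24 weeks have the lowest erythroid means, 10.53 and 10.67.

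**Figure D5:**
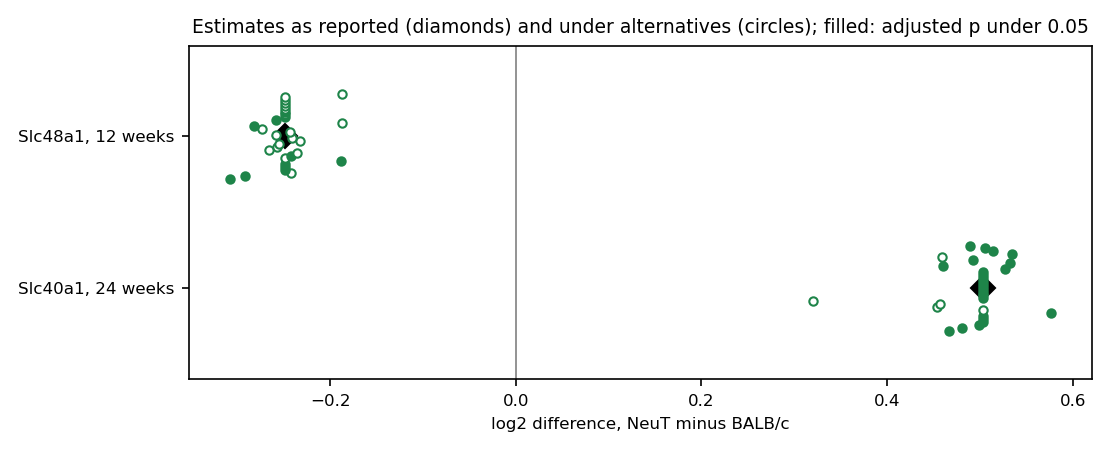
Log2 differences, NeuT minus BALB/c (horizontal axis), of Slc48a1 at 12 weeks and Slc40a1 at 24 weeks; diamonds are the values reported, circles those of the alternative fits, and filled circles passed the limma test. Slc48a1 stays below zero and Slc40a1 above zero in every fit drawn, while many Slc48a1 circles are open.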

How the data were processed

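Total RNA of the marrow preparations was hybridised to 18 arrays, each for a single mouse. The authors deposited log2 signals of probe sets. RMA and the Transcriptome Analysis Console were used, per the submitters' processing notes; neither their versions nor a genome build is given in these sources. RMA makes the arrays' distributions alike, so a shift of most genes at once would not be seen. Of 29129 probe sets, 19572 had 1 gene symbol in the platform annotation; control, unnamed and other probe sets were left out. For the 55 genes with several, the brightest was kept, leaving 19505 genes with no filter on dim ones.

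Group means were fitted gene by gene with limma 3.58.1 in R 4.3.3 (14 residual and 8.68 prior degrees of freedom; two-sided; Benjamini-Hochberg adjustment; threshold 0.05), after a check on simulated data. Replicates are different mice, numbered in accession order. The members, the 14 lists (178 of 198 genes measured) and the naming rule were chosen with earlier results of these data known. The rule names all members, up to 3 genes past the threshold per list and age or else the one with the smallest p, and the genes most like and unlike Hmox1; of the marker lists it is applied only in part. Promoter windows are RefSeq's, on GRCm38.p6. Alternatives were further normalisations, a filter on dim genes, other moderation, array weights, fits of only the groups compared, marker means as covariates and leaving out arrays; the fit without 3 arrays together was added after seeing the data. Figures were drawn with matplotlib.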

Additional observations from a re-analysis of the deposited data

Results flagged for a closer look

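The NeuT effects on Hmox1 at 24 and 12 weeks lay 1.26 apart on the log2 scale. This rests on the 12-week values for which Hmox1 was listed, so it is a description and no evidence of its own. Among the members, 6 values, from 5 mice, lay far from the rest of their group in 40 checks of highest or lowest values, where chance alone singles out about 1 group in 20. Blvra was 10.22 in NeuT 12-week replicate 4, with the next mouse at 9.92, and 9.40 in BALB/c 12-week replicate 2, with the next at 9.72. Bach1 was 12.33 in the same BALB/c mouse, with the next at 12.16. Slc40a1 was 9.01 in BALB/c 12-week replicate 5, with the next at 9.19. Fth1 was 13.28 in BALB/c 24-week replicate 1, with the next at 13.56, and Tfrc was 9.90 in BALB/c 24-week replicate 3, with the next at 10.26. Of these mice, NeuT 12-week replicate 4 and BALB/c 24-week replicate 3 are also among the 3 arrays that correlated least with the others.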

How the results depend on the processing

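Over 1485 values of the 10 members under the alternatives, 0 calls changed sign, 28 ended and 18 were gained; 53 values that passed in neither fit changed sign. The counts below include Hmox1 at 12 weeks, for the difference of effects and between the ages in NeuT mice; since its 12-week values chose it, nothing on stability is read from its part in them. Of the 10 members, 2 passed at 12 weeks as reported (Hmox1 and Slc48a1) and 1 (Hmox1) with median centring, with the erythroid or neutrophil covariate and without the 3 arrays, and between 1 and 2 without single arrays. Cyclic loess added Bach1 to the 2, and with only the groups compared Blvrb took the place of Slc48a1. At 24 weeks 1 passed as reported, 2 with array weights (Slc40a1 and Slc48a1), 0 with only the groups compared or with any of the 3 marker covariates, and between 0 and 1 without single arrays. For the difference of effects 1 passed as reported and 0 without the 3 arrays. Between the ages in NeuT mice 1 passed as reported, 2 with the filter on dim genes, trend and robust moderation, array weights or the macrophage covariate, 0 with only the groups compared, the erythroid covariate or without the 3 arrays, and between 1 and 3 without single arrays. In BALB/c mice 0 passed as reported, 2 with array weights or without the 3 arrays and 1 with only the groups compared. Without single arrays between 0 and 1 passed there. The number of all genes passing also moved between fits. At 24 weeks it was 274 as reported, 221 with median centring, 114 with quantiles equalised again and 101 with cyclic loess. Between the ages in BALB/c mice it was 113, 109, 182 and 155 in the same order. Whether the members' gains and losses go beyond such shifts was not tested. With the neutrophil covariate, which holds these genes itself, the neutrophil genes Ltf (12 weeks 1.52, 24 weeks 1.82) and Lcn2 (12 weeks 1.41) came to -0.10, -0.12 and -0.16. Of the genes called, 82.1% were higher in NeuT at 12 weeks and 84.3% at 24 weeks, against 67.4% and 69.3% after a further quantile normalisation and 68.6% and 72.3% after cyclic loess. The causes of these changes were not tested. No paired analysis was possible because the labels give no shared replicate numbers. Signals near the negative controls (Spic, Cp, Hjv, C1qc) limit what can be read from them.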
